A study of Xenopus laevis with 3 samples.

Results

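The genes of the sarcomere and of muscle structure were described in inner ear tissue of larval *Xenopus laevis*. Members were chosen by name: Affymetrix probe set IDs (Xl-PSIDs) with a single gene symbol, taken without its L or S suffix, that named a myosin heavy or light chain, a troponin, tropomyosin, alpha actin, tropomodulin, nebulin or myosin binding protein, a Z-disc or LIM domain protein, a sarcoglycan, dystrophin, caveolin 3, calsequestrin, a creatine kinase or a factor of sarcomere assembly and turnover. The rule matched 149 of the 32635 Xl-PSIDs on the array, and 149 of the 15505 with a single symbol. Together they measured 68 genes, with the L and S homeologs of a gene, its copies on the 2 subgenomes of this allotetraploid frog, counted as 1 gene. The rule used names alone and no measured value, but it was chosen with earlier results of these data known. It also matched *mylip*, which encodes a ubiquitin ligase and no light chain.

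A sarcomere is built of thick filaments of myosin that slide along thin filaments of actin. Troponin and tropomyosin on the thin filament make the sliding depend on calcium, which calsequestrin stores inside the cell, and the Z-disc anchors the thin filaments at the ends of each unit. Skeletal fibers, heart muscle, smooth muscle and cells that are not muscle use different genes for most of these parts, and hair cells and other cells of the inner ear contain non-muscle myosins and actins. Each gene was therefore placed by textbook knowledge, mainly of mammals, in a form: skeletal striated, slow or cardiac, striated in general, smooth, or non-muscle. The forms have limits, since *actc1* is also an actin of skeletal muscle in *Xenopus* larvae and *tpm3* is made in many cell types.

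All samples belonged to a single group, *s50*, which was inner ear tissue from larvae of stages 50 to 52, aged 15 to 21 days post-fertilization, with no treatment and no genotype named. The array *s50_1* held RNA from a pool of 15 animals, *s50_2* from 38 and *s50_3* from 24, and labelling started from 1, 1 and 0.7 µg of RNA. Mean body length was 2.99, 3.07 and 3.19 cm and mean weight 0.15, 0.14 and 0.16 g in the same order. Each array is a separate pool with its own animals, dissection and hybridization, so these cannot be told apart for any array. The RNA amount was the same for *s50_1* and *s50_2* and differed for *s50_3*. No replicate of a pool was analysed here.

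Values are log2 intensities as deposited, and a difference of 1 is a 2-fold difference in intensity. Where 3 values of an Xl-PSID follow each other, they stand in the order *s50_1*, *s50_2*, *s50_3*. The median Xl-PSID lay at 7.53, 7.52 and 7.45 on the 3 arrays. Across the detected and undetected members, which are not independent, Pearson's r was 0.985 for the pair *s50_2* and *s50_3*, and 0.969 and 0.963 for *s50_1* paired with either. Over all Xl-PSIDs the order was another, with 0.979 for *s50_1* with *s50_2*, 0.975 for *s50_2* with *s50_3* and 0.956 for *s50_1* with *s50_3*. Of the 16 hair cell markers listed, 2 were measured with a single symbol: *myo6*, an unconventional myosin of hair cells, lay at 12.85, 12.15 and 12.96 and *lhx3* at 6.32, 5.19 and 2.07. Of 13 markers listed for supporting cells, tectorial membrane and otoconia, 3 were measured. The connexin *gjb2* lay between 14.42 and 14.75, *sox2* at 12.64, 12.125 and 10.53, and *tecta.2* at 8.58, 8.91 and 7.64. The tissue thus carried markers of the ear, of which all but *myo6* were lowest on *s50_3*. The other hair cell markers listed had no Xl-PSID with a single symbol and were not checked.

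Members of the striated muscle forms were mostly lowest on *s50_1*, whereas the non-muscle members had a median difference near 0. A mean of 4 or more over the 3 arrays was taken as detection, which held for 111 of the 149 members and for 64.8% of all Xl-PSIDs. The difference of an array is its value minus the mean of the other 2 arrays. On *s50_1* the median difference was -1.36 over the 23 detected skeletal striated members, or 2.57-fold lower, and -1.97 over the 16 detected slow or cardiac members, or 3.91-fold lower. The larger value of the slow or cardiac form depended on the detection rule. With at least 4 required on every array the medians were -1.23 for skeletal striated and -1.18 for slow or cardiac members. With no detection rule they were -1.23 and -0.91. It was -0.74 over 15 members striated in general, -0.43 over 10 smooth members and 0.08 over 44 non-muscle members, and -0.05 over all detected Xl-PSIDs. In bulk tissue, fewer cells of a type and less RNA per cell cannot be told apart.

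**Figure D1:**
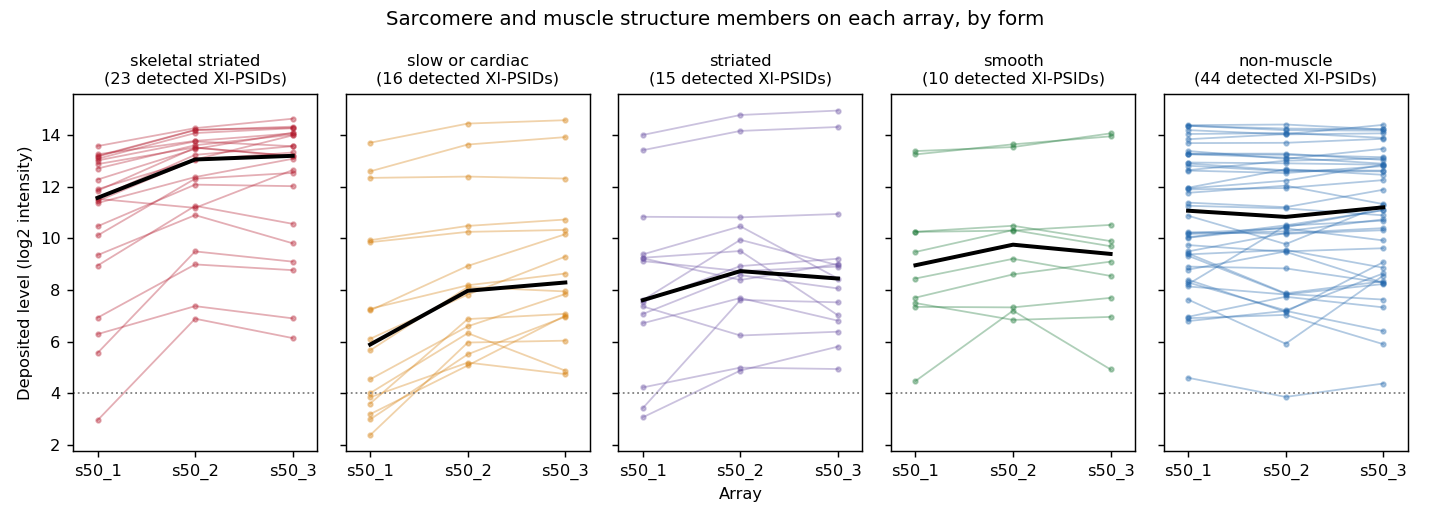
Deposited level (log2 intensity, vertical axis) of each detected member on the 3 arrays (horizontal axis, which have no order), with a thin line per Xl-PSID, a black line for the median of the form and a dotted line at the detection minimum of 4. In the skeletal striated panel 22 of 23 members have their lowest value on *s50_1*, and in the slow or cardiac panel 15 of 16, against 13 of 44 in the non-muscle panel.

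Among the 111 detected members, 37 were at least 1 lower on *s50_1* than on the other arrays, where 11.7% of all detected Xl-PSIDs were, and 4 were at least 1 higher, where 14.2% were. By form, 17 of 23 skeletal striated, 12 of 16 slow or cardiac and 5 of 15 striated members were lower, but 2 of 10 smooth and 1 of 44 non-muscle members. The lowest of the 3 values was on *s50_1* for 46 of the 54 detected members of any striated form, for 20 of the 54 smooth and non-muscle members, and for 42.3% of all detected Xl-PSIDs. With a single array on 1 side these counts are a description and no test was possible.

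On *s50_2*, 5 members were at least 1 lower, where 6.8% of all detected Xl-PSIDs were, and 16 at least 1 higher, where 5.46% were. On *s50_3*, 5 were lower, against 15.2% of all, and 22 were higher, against 13.3%. The differences of *s50_2* and *s50_3* have *s50_1* in their reference, so a member that was low on *s50_1* was raised in both. Compared directly, *s50_3* was at least 1 above *s50_2* in 6 of the 54 striated members and at least 1 below it in 4, where 10.9% and 13.4% of all detected Xl-PSIDs were above and below. The median of *s50_3* minus *s50_2* was 0.14 over the striated members and 0.04 over all detected Xl-PSIDs. The striated set thus had little common shift between these arrays, although single members ranged from -2.49 to 1.93.

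**Figure D2:**
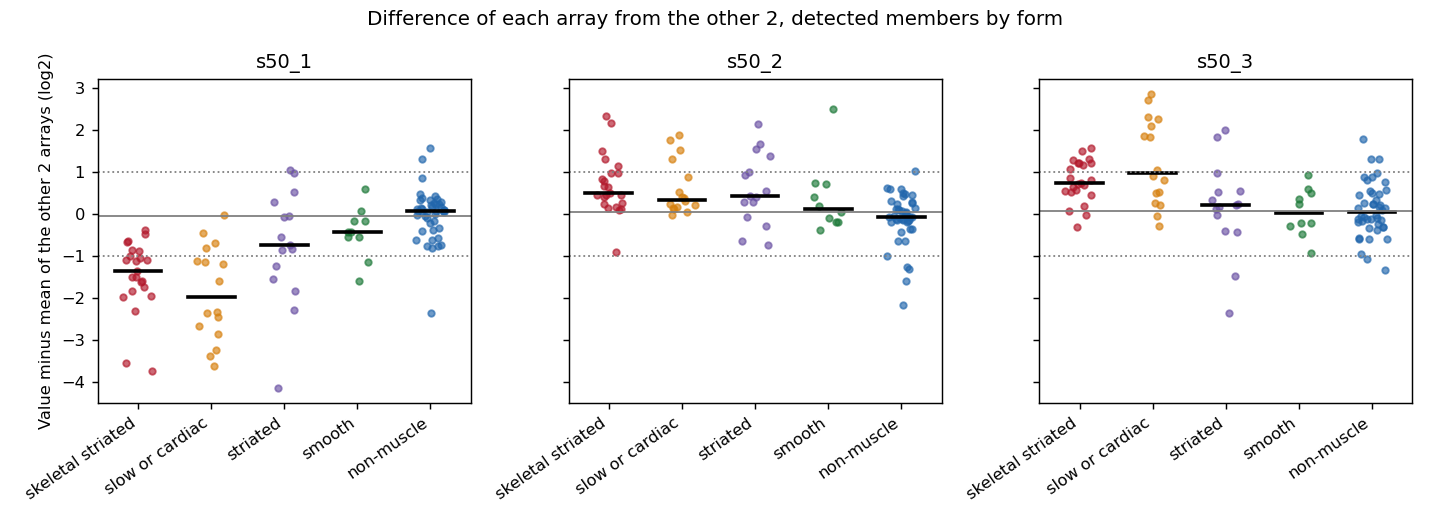
Difference of each array from the mean of the other 2 (log2, vertical axis) for every detected member by form, with a black bar at the median of the form, a grey line at the median of all detected Xl-PSIDs and dotted lines at -1 and 1. On *s50_1* the medians are -1.36 for skeletal striated and -1.97 for slow or cardiac members and 0.08 for non-muscle members. With at least 4 required on every array, which is not drawn, the medians of the striated forms named are -1.23 and -1.18.

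The detection rule bears on these counts, because a member that was high on *s50_2* and *s50_3* and near the floor on *s50_1* had to differ. Of the 54 detected striated members, 8 lay below 4 on *s50_1*. Among the 46 with at least 4 on every array, 26 were at least 1 lower on *s50_1*, with a median difference of -1.09, where 10.6% of all such Xl-PSIDs were lower. With no detection rule, 41 of 82 striated members and 3 of 60 smooth and non-muscle members were lower, where 8.58% of all Xl-PSIDs were. Taken against *s50_2* alone, 36 of 111 members were lower on *s50_1* (8.13% of all), and against *s50_3* alone, 36 of 111 (18.3% of all).

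The brightest members showed the pattern as well. In the band of mean level from 12 to 16, 11 of 19 striated members were at least 1 lower on *s50_1* but 0 of 21 smooth and non-muscle members, and 31 of the 3074 Xl-PSIDs in that band (1.01%). From 4 to 6 the counts were 8 of 9 striated members against 22.6% of all Xl-PSIDs. In the 3 bands between, from 6 to 12, between 50.0% and 62.5% of the striated members were lower, against 5.57% to 20.5% of all.

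**Figure D3:**
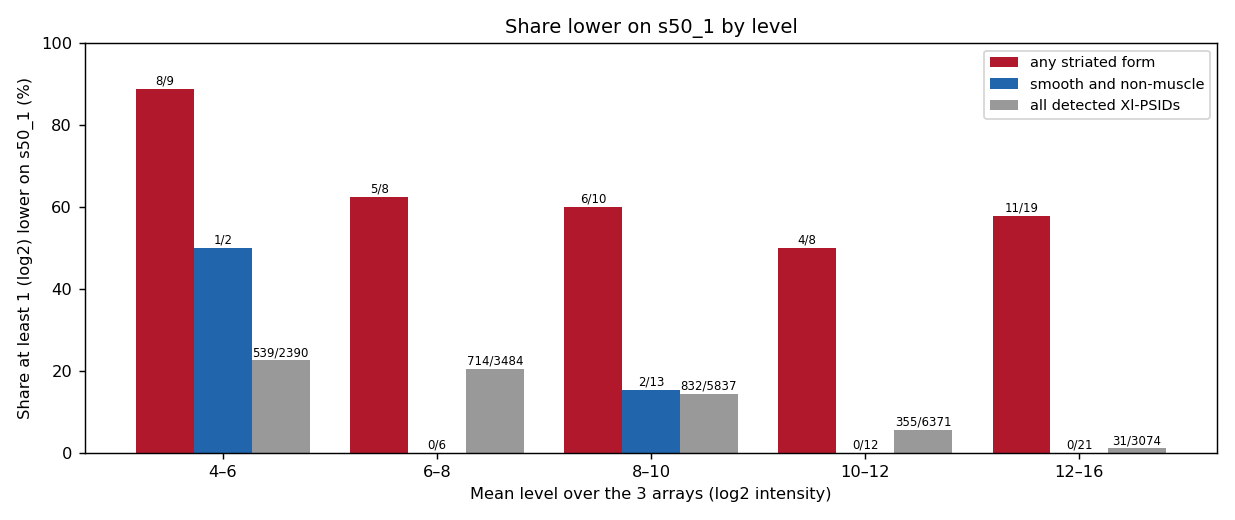
Share of Xl-PSIDs at least 1 (log2) lower on *s50_1* (percent, vertical axis) in bands of mean level (log2 intensity, horizontal axis), for members of any striated form, smooth and non-muscle members, and all detected Xl-PSIDs, with the counts above the bars. In the brightest band the shares are 57.9%, 0.0% and 1.01%.

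Myosin heavy chains, the motors of the thick filament, differed by form. The skeletal heavy chain *myh4.L* lay at 13.58, 14.27 and 14.64. The brightest Xl-PSID of *myh8.L*, the perinatal heavy chain of mammals, lay at 12.28, 13.46 and 14.10. Both were lowest on *s50_1*, with differences of -0.88 and -1.50. The other 2 Xl-PSIDs of *myh8.L* had differences of -1.62 and -0.38, the latter with values of 11.53, 11.18 and 12.65, so this Xl-PSID was lowest on *s50_2*. In the frog genome annotation *myh4.L* and *myh8.L* lie with 1 gene between them, and Xl-PSIDs of these related genes may share transcripts.

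The heavy chain of atrial and slow type, *myh6.S*, was much lower on *s50_1*. Its brightest Xl-PSID lay at 5.66, 8.11 and 7.94, and the other 2 detected ones at 4.54, 6.59 and 7.84 and at 2.98, 5.51 and 6.96. The differences on *s50_1* were -2.37, -2.68 and -3.25, of which the last was set in part by the floor of the scale near 2. A further *myh6.S* Xl-PSID stayed at 2.42 or below on every array. The smooth muscle heavy chain *myh11* had 6 detected Xl-PSIDs with differences on *s50_1* from -0.54 to 0.59, none of them past 1.

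Non-muscle heavy chains followed another order of the arrays. The 7 Xl-PSIDs of *myh9* and *myh10*, motors of the cell cortex, had a median difference of 0.29 on *s50_1* and of -1.26 on *s50_2*. All 7 were highest on *s50_3*, where 9045 of all 21156 detected Xl-PSIDs were. The largest case was a *myh9.L* Xl-PSID at 7.63, 5.92 and 8.56, and *myh10.S* lay at 10.88, 9.78 and 11.30. The brightest *myh9.L* Xl-PSID lay at 12.63, 12.53 and 12.80, nearly level, so the drop on *s50_2* was not shared by every Xl-PSID of that gene. On *s50_2*, 4 of the 7 were at least 1 lower, where 6.8% of all detected Xl-PSIDs were, and the 7 measure 2 genes.

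Light chains bind the neck of the myosin head. The skeletal light chains *myl1.L* (13.02, 13.76 and 13.57) and *mylpf.L* (13.26, 13.78 and 14.07) were lowest on *s50_1* with differences of -0.65 and -0.67. The cardiac and slow light chain *myl3.L* lay at 3.60, 6.87 and 7.07. The atrial and embryonic light chain *myl4.S* lay at 4.005, 6.33 and 4.87, and *myl4.L* at 3.84, 5.19 and 4.74. Thus all 3 detected slow or cardiac light chain Xl-PSIDs were at least 1 lower on *s50_1*, where 11.7% of all detected Xl-PSIDs were, and *myl4* stood highest on *s50_2*. On *s50_1* *myl3.L* and *myl4.L* lay below the detection minimum of 4, so they were detected only through the other arrays. This count therefore leans on the detection rule. Of those not detected, *myl3.S* had a difference of -0.19 and *myl2.S* of -2.52. The smooth muscle light chain *myl9* had differences of -0.42 and -0.54, and the 6 detected Xl-PSIDs of the non-muscle *myl6* and *myl12b* had differences between -0.34 and 0.24.

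Myosin binding proteins hold the thick filament in register. The heart form, *mybpc3.S*, lay at 7.21, 8.93 and 10.16, a difference on *s50_1* of -2.34. The skeletal *mybph.S* had nearly the same difference, -2.31, but its values on *s50_2* (12.31) and *s50_3* (12.54) lay close together.

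Of the actins that form thin filaments in muscle, *acta1.S*, the skeletal alpha actin, had a wide spread. It lay at 2.95, 6.89 and 6.13, so the difference of -3.56 has its lower end near the floor. The brighter Xl-PSID of *actc1.L*, the cardiac alpha actin, lay at 13.71, 14.45 and 14.58, and the other had a difference of -1.18. The smooth muscle actin *acta2.L* lay at 7.70, 8.60 and 9.10, with a difference of -1.15. All 4 Xl-PSIDs, which measure 3 genes, were lowest on *s50_1*, where 42.3% of all detected Xl-PSIDs were. On *s50_1* *acta1.S* lay below the detection minimum of 4 and was detected only through the other arrays.

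Troponins were mostly low on *s50_1*, with a median difference of -1.66. On that array 7 of 8 detected Xl-PSIDs were at least 1 lower, where 11.7% of all detected Xl-PSIDs were. Troponin C, the calcium sensor, was measured in its fast form by *tnnc2.L* at 11.85, 13.51 and 13.20. Fast troponin I, the inhibitory subunit, was measured by *tnni2.S* at 11.45, 13.04 and 13.33. Fast troponin T, which binds tropomyosin, was measured by *tnnt3.S* at 11.57, 13.24 and 13.57. The 3 subunits of the fast complex thus shared a pattern, with differences of -1.51, -1.74 and -1.83. The genes *tnni2.S* and *tnnt3.S* lie with 1 gene between them in the annotation, whereas *tnnc2.S*, the homeolog of *tnnc2.L*, had a difference of -1.58.

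Cardiac troponin I was also highest on *s50_3*. Its S copy, *tnni3.S*, lay at 6.11, 7.82 and 9.29, and *tnni3.L* at 3.19, 5.07 and 7.01. In both copies the 3 values lay more than 1 apart from each other, and the differences on *s50_1* were -2.45 and -2.85. The *s50_1* value of *tnni3.L* lay below the detection minimum. The slow skeletal troponin I genes were flatter, with *tnni1.S* at 9.93, 10.48 and 10.73 and *tnni1.2.L* at 7.27, 8.18 and 8.64. The other troponins of the slow and cardiac forms, *tnnc1*, *tnnt1* and *tnnt2*, were not detected.

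Tropomyosin lies along the thin filament and covers the myosin sites. The 2 Xl-PSIDs of *tpm2.S*, a striated and smooth muscle form, lay at 7.61, 9.94 and 8.96 and at 7.53, 8.93 and 9.21, with differences on *s50_1* of -1.84 and -1.54. The brightest tropomyosin Xl-PSID, of *tpm1.L*, lay at 14.01, 14.78 and 14.95, a difference of -0.86. Both genes were lowest on *s50_1*. In contrast, *tpm3.S* was level at 12.34, 12.39 and 12.32, and the 4 detected Xl-PSIDs of *tpm4*, the form of many non-muscle cells, had differences between 0.06 and 0.25.

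Tropomodulins cap the slow-growing ends of thin filaments. The skeletal *tmod4.L* lay at 6.92, 8.99 and 8.77, and the widely made *tmod3.S* at 9.38, 9.55 and 8.86. Their differences on *s50_1* were -1.96 and 0.17.

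At the Z-disc, the largest difference of any detected member was that of *tcap.S*, telethonin, which links titin ends. It lay at 3.42, 7.61 and 7.52, a difference of -4.15 with the *s50_1* value below the detection minimum. The calsarcin gene *myoz1*, a Z-disc anchor of calcineurin in fast fibers, followed with *myoz1.L* at 5.56, 9.49 and 9.10 and *myoz1.S* at 8.94, 11.26 and 10.56. In these 3 Xl-PSIDs *s50_2* and *s50_3* lay within 0.70 of each other and far above *s50_1*.

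Other Z-disc and LIM genes did not share that order. The Z-disc protein *ldb3.S* (ZASP) lay at 9.38, 10.47 and 8.44, and *fhl1.L*, a LIM protein of striated muscle, at 9.25, 9.51 and 7.02. Both had their lowest value on *s50_3*, and *fhl1.S* had its lowest on *s50_1* (6.71, 7.69 and 6.81). The smooth muscle LIM protein *csrp1.L* was raised on *s50_2* alone, at 4.47, 7.20 and 4.92. The actinin-associated LIM gene *pdlim3.L* of skeletal muscle lay at 6.29, 7.37 and 6.90. Alone among the striated members, *pdlim5.L* was at least 1 higher on *s50_1*, at 7.36, 6.24 and 6.38.

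Among the 16 non-muscle Z-disc and LIM Xl-PSIDs, 5 spanned 1 or more over the arrays, where 9711 of all 21156 detected Xl-PSIDs did. These 5 did not share an order. The brightest, *csrp2.L*, lay at 13.84, 14.04 and 14.40, *pdlim4.L* at 11.96, 12.68 and 12.46, and the brightest *fhl3.S* Xl-PSID at 12.82, 12.60 and 12.60. The widest was *pdlim7.S*, at 8.22, 10.49 and 10.69. It was followed by 2 dimmer Xl-PSIDs of *fhl3.S*, at 9.33, 7.85 and 7.63 and at 9.74, 9.48 and 8.28, by a dimmer Xl-PSID of *csrp2.S*, at 6.91, 7.03 and 5.90, and by *pdlim1.L*, at 10.04, 10.50 and 11.09. Thus *pdlim7.S* and *pdlim1.L* were lowest on *s50_1*, and the other 3 on *s50_3*. The difference of *pdlim7.S* on *s50_1* was -2.37, the single non-muscle member past 1 in that direction, while the Xl-PSIDs under the symbol *pdlim7-a* had differences of 0.05 and -0.57. PDLIM7 is known in mammals as a LIM protein of bone and of muscle, so its placement in the non-muscle form is open to choice.

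Genes of the membrane complex, which ties the muscle fiber to its surroundings, had a median difference of -0.23 on *s50_1*. Dystrophin, *dmd.1.L*, lay at 9.23, 8.39 and 9.02 in its detected Xl-PSID. The muscle caveolin *cav3.2.S* lay at 10.84, 10.81 and 10.95 in its brighter Xl-PSID and at 4.22, 4.99 and 4.94 in the dimmer. The beta-sarcoglycan gene *sgcb.L*, which is made beyond muscle, lay at 12.64, 13.01 and 13.10 in its brighter Xl-PSID and at 9.42, 7.87 and 8.34 in the dimmer. The epsilon-sarcoglycan gene *sgce.S* lay at 10.02, 10.43 and 11.10. None of the 6 detected Xl-PSIDs of this role was at least 1 lower on *s50_1*, where 11.7% of all detected Xl-PSIDs were. A single one was at least 1 higher, where 14.2% were. Over so few Xl-PSIDs these counts are near those shares. Below 0 were 4 of the 6, beside 11222 of all 21156 detected Xl-PSIDs. A further *dmd.1.L* Xl-PSID, not detected by its mean, ran from 2.10 on *s50_1* to 5.17 on *s50_3*.

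Calsequestrins bind calcium in the sarcoplasmic reticulum. The skeletal *casq1.S* lay at 9.35, 10.90 and 9.81. The cardiac and slow *casq2.S* lay at 2.37, 5.96 and 6.04. Both were lowest on *s50_1*, with *casq1.S* at -1.005, just past the 2-fold line, and *casq2.S* at -3.63 from the floor of the scale.

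The creatine kinases, which buffer ATP, gave a contrast between a muscle gene and its non-muscle relative at high level. The 5 detected Xl-PSIDs of the muscle form *ckm.L* had differences on *s50_1* between -1.36 and -1.05, the brightest at 13.17, 14.20 and 14.33. The 5 detected Xl-PSIDs of the brain form *ckb.L* had differences between 0.06 and 0.18, the brightest at 14.39, 14.41 and 14.22. The mitochondrial *ckmt1b* had differences of -0.16 and 0.27. Several Xl-PSIDs of each gene repeat the measurement of that gene on the same RNA and are not replicates.

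Factors of sarcomere assembly and turnover were dimmer. The methyltransferase *smyd1.L*, needed for myosin assembly, lay at 7.07, 8.57 and 8.06. The ubiquitin ligase *trim63.L* (MuRF1), which marks sarcomere proteins for breakdown, lay at 3.06, 4.88 and 5.80. Both were at least 1 lower on *s50_1*, where 11.7% of all detected Xl-PSIDs were, and the myosin chaperone *unc45b.S* was not detected. On *s50_1* *trim63.L* lay below the detection minimum of 4, so it was detected only through the other arrays. Further *trim63* Xl-PSIDs, at 2.18, 2.78 and 3.61 and at 1.99, 2.07 and 2.49, were not detected. The name match *mylip.S* lay at 9.88, 8.97 and 7.36, lowest on *s50_3*. The single detected Xl-PSID of *mylc2a*, a gene left without a form, lay at 7.82, 7.63 and 8.45.

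**Figure D4:**
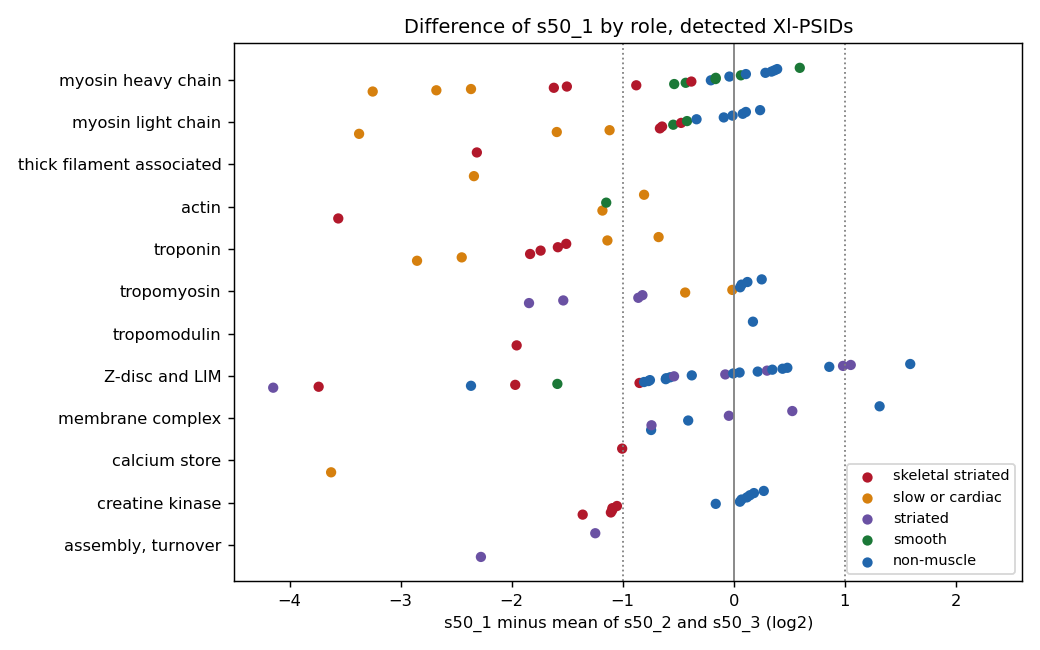
Difference of *s50_1* from the mean of *s50_2* and *s50_3* (log2, horizontal axis) for the detected Xl-PSIDs of 12 roles (vertical axis), colored by form, with dotted lines at -1 and 1. Within the creatine kinase row the *ckm* Xl-PSIDs lie between -1.36 and -1.05 and those of *ckb* between 0.06 and 0.18, and all 8 troponin Xl-PSIDs lie below 0.

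The order of *s50_2* and *s50_3* differed among members. Among the 16 slow or cardiac members, *s50_3* exceeded *s50_2* by at least 1 in 5, which were both copies of *tnni3*, 2 Xl-PSIDs of *myh6.S*, and *mybpc3.S*, where 10.9% of all detected Xl-PSIDs were. It was at least 1 below in *myl4.S*. All 5 are from *tnni3*, *myh6* and *mybpc3*, genes of heart muscle in mammals. However, the brightest *myh6.S* Xl-PSID was level between the arrays, at 8.11 and 7.94. Such an excess on *s50_3* was not particular to heart genes. It was also seen in 1 of 23 skeletal striated Xl-PSIDs, of *myh8.L*, and in 4 of 44 non-muscle Xl-PSIDs, of *myh9* and *myh10*. In the other direction, *s50_3* was below *s50_2* by 1 or more in 5 of the 26 Z-disc and LIM Xl-PSIDs, beside 13.4% of all, with the lowest values of *s50_3* minus *s50_2* at -2.49 for *fhl1.L*, -2.28 for *csrp1.L* and -2.02 for *ldb3.S*.

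Homeologs and repeated Xl-PSIDs were compared within genes. Both the L and the S copy were detected for 17 genes, and their differences on *s50_1* had the same sign in 12 and lay within 0.5 of each other in 13. The 3 genes with a gap of at least 1 were *fhl1*, *mylip* and *myoz1*. Among 8 striated genes with both copies detected, both were below 0 in 6, and the exceptions were *fhl1* and *pdlim5*. Of 29 genes with several detected Xl-PSIDs, all had the same sign on *s50_1* in 14 of the 15 striated genes and in 5 of the other 14. These counts of signs restate the shift of each set and cannot show that Xl-PSIDs of a gene agree. On *s50_1*, 50 of the 54 detected striated members were below 0, against 25 of the 54 smooth and non-muscle members. Levels differed more than differences did, since the median gap between the highest and lowest Xl-PSID of a gene was 2.04 in level and 0.48 in the difference on *s50_1*.

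Genes were also counted by their brightest Xl-PSID. This was at least 1 lower on *s50_1* in 10 of the 14 detected skeletal striated genes. It was so in 7 of 10 slow or cardiac genes and 4 of 10 genes striated in general. The same held for 2 of 4 smooth genes, *acta2* and *csrp1*, and for 1 of 18 non-muscle genes. Shares over all genes were not computed. The members with the largest SD over the 3 arrays were *tcap.S* (2.40), *myoz1.L* (2.17), *casq2.S* (2.09), *acta1.S* (2.09) and an Xl-PSID of *myh6.S* (2.01). Each was lowest on *s50_1*. All but *myoz1.L* lay below 4 on *s50_1* and were detected only through the other arrays, so their order leans on the detection rule. The median SD was 0.86 over the skeletal striated and 1.27 over the slow or cardiac members, against 0.32 over the non-muscle members and 0.48 over all detected Xl-PSIDs. An SD over the 3 arrays includes *s50_1*, so these values in part restate the difference of that array.

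The median level of the detected members was 12.79 for the skeletal striated, 7.49 for the slow or cardiac, 8.59 for the striated, 9.28 for the smooth and 10.88 for the non-muscle form. Each Xl-PSID has probes of its own with their own brightness, so these medians do not rank amounts of RNA. The slow or cardiac form had the lowest share detected, 16 of 32 Xl-PSIDs, against 23 of 26 for the skeletal striated and 44 of 50 for the non-muscle form.

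Of the 38 members not detected, 27 lay below 3 on every array. Genes without a detected Xl-PSID were *csrp3*, *myoz2*, *nebl*, *myh3*, *myh15*, *tnnc1*, *tnnt1*, *tnnt2*, *myl2* and *unc45b*, of which 8 belong to the slow or cardiac form. Just outside the minimum of 4 were *myl2.S*, the ventricular and slow regulatory light chain, with a mean of 3.99, a *ckm.L* Xl-PSID with 3.98 and *nebl.L* with 3.87. Just inside were an Xl-PSID of *fhl3.S* with 4.27, *trim63.L* with 4.58 and *myl4.L* with 4.59. Of the members not detected, 7 reached 4 on an array, such as *myl2.S* at 2.30, 5.09 and 4.56. An Xl-PSID at the floor can lack RNA or have probes that do not bind it, and these cannot be told apart.

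Further muscle genes from lists were read on the same arrays. The smooth muscle list and the heart list each also held 2 members of the rule. The lists were chosen with earlier results of these data known, and a gene was represented by its brightest Xl-PSID. Their counts stand beside the 11.7% of all detected Xl-PSIDs that were at least 1 lower on *s50_1* and the 14.2% that were higher. Among the genes called lower in these lists, *cacna1s*, *klhl41* and *eno3* lay below 4 on *s50_1*. They were detected only through the other arrays, so the counts of their lists lean in part on the detection rule. Of 13 measured genes of other muscle structure, 10 were detected, 5 were at least 1 lower on *s50_1* and 2 were higher, with a median difference of -0.97. The fast alpha-actinin *actn3*, which crosslinks thin filaments at the Z-disc, lay at 10.05, 11.40 and 11.59, and the small heat shock protein gene *hspb1* at 4.06, 9.06 and 7.95. The others that were lower were *mustn1* (-1.36), *capn3* (-2.16), a muscle calpain, and *sypl2* (-1.80), a protein of the triad membranes. Higher on *s50_1* were *dag1*, the dystroglycan gene that is made in many epithelia, at 13.21, 12.36 and 10.36, and *flnc*, at 6.46, 6.77 and 3.95. In both, *s50_3* was the array that stood apart.

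Of 9 measured genes of the neuromuscular junction, 6 were detected, and 4 were at least 1 lower on *s50_1*, none higher, with a median of -1.04. All 4 were subunits of the acetylcholine receptor of muscle, *chrna1* at 9.56, 10.60 and 10.67, *chrnd* at 8.39, 9.49 and 9.32, *chrna1.2* with a difference of -1.19 and *chrne* with -1.99. The embryonic subunit *chrng* did not follow them, at 5.38, 7.72 and 1.90, a difference of 0.57, and *ache*, the acetylcholinesterase gene, had a difference of 0.71. The subunit *chrnb1* and the anchoring genes *musk* and *rapsn* were at the floor. In calcium cycling and excitation, 7 genes were measured, and 2 of 6 detected genes were lower and 1 higher, with a median of -0.75. The fast calcium pump *atp2a1* lay at 12.25, 13.24 and 13.38 while the pump of heart, slow and many other cells, *atp2a2*, lay at 12.73, 11.88 and 11.54, the opposite order of the arrays. The other lower gene was *cacna1s*, the calcium channel of skeletal muscle, at 2.61, 5.32 and 6.15, and the buffer gene *pvalb* had a difference of -0.58.

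Of 16 energy enzymes, all detected, 4 were lower on *s50_1* and none higher, with a median of -0.27. These 4 were the muscle enolase *eno3* at 3.78, 7.72 and 10.26, the muscle phosphoglycerate mutase *pgam2* at 4.27, 6.91 and 8.61, the phosphorylase kinase subunit *phkg1* at 4.58, 6.30 and 7.44, and the ADP/ATP carrier *slc25a4* at 8.27, 11.17 and 11.50. The brightest of the list differed less, with *gapdh* at 14.97, 14.82 and 14.88, *tpi1* at 13.91, 13.40 and 14.18 and *pygm* at 13.68, 13.76 and 13.94. The muscle forms *pygm* and *pfkm* had differences of -0.17 and 0.10, so not every muscle form was lower. On the same list *fbp2* and *fabp3* had differences of -0.42 and 0.41. Among muscle regulators, 10 of 17 were detected, 3 were lower and 1 was higher, with a median of -0.31. The sarcomere-stabilizing *klhl41* lay at 3.31, 7.87 and 7.77, while *mef2a*, a transcription factor of muscle and other cells, lay at 7.31, 6.16 and 6.36. The others that were lower were *klhl40* (-2.04) and *nfatc1* (-1.58), and the brightest, *pax3*, *cfl2* and *smyd2*, had differences of 0.27, -0.34 and -0.29. The regulators *myod1*, *myf5*, *myf6*, *myog*, *pax7*, *myocd* and *srf* were not detected.

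Heart markers were mostly at the floor. Of 11 measured, 3 were detected, *myh6*, *tnni3* and *popdc2*, all lower on *s50_1* with a median of -2.37, and the first 2 are members of the rule. Transcription factors and hormones of the heart, among them *nkx2-5*, *gata4*, *tbx5*, *nppa* and *nppb*, lay below 3 on every array. Of 7 smooth muscle markers, 4 were detected, with a median of -0.66. The 2 that were lower were *acta2*, a member of the rule, and *tagln*, the latter at 7.53, 9.14 and 9.27. The brightest marker, *smtn*, had a difference of -0.07. The smooth muscle regulator *myocd* was at the floor.

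**Figure D5:**
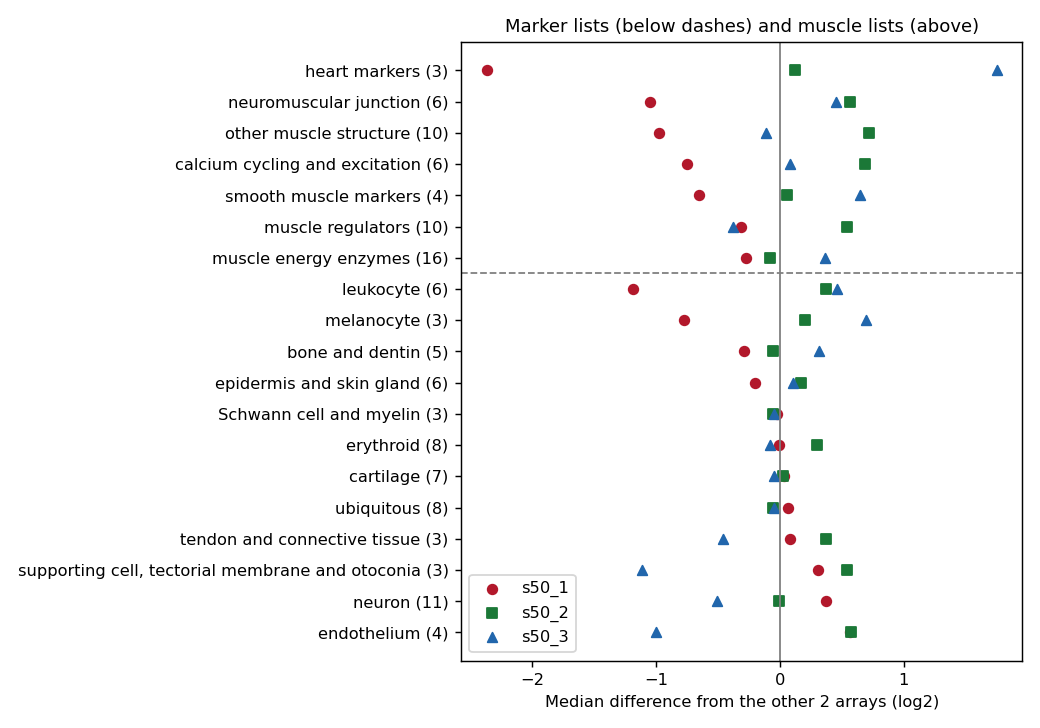
Median difference of each array from the mean of the other 2 (log2, horizontal axis) over the detected genes of each list with at least 3 of them (vertical axis, number in brackets), with muscle lists above the dashed line and marker lists of other cell types below it. On *s50_1* the medians are -2.37 for heart markers, -1.04 for the neuromuscular junction, -1.19 for leukocytes and 0.04 for cartilage.

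Some markers of 2 other cell types were also low on *s50_1*. Of 8 leukocyte markers measured, 6 were detected, 5 of them below 0 on *s50_1* and 3 at least 1 lower, with a median of -1.19. Of all 21156 detected Xl-PSIDs, 11222 were below 0 and 11.7% at least 1 lower. The 3 were *mmp9.1*, *coro1a* and *mpo*, the last below 4 on *s50_1* and detected only through the other arrays. In contrast, *lyz*, *cd74* and *zap70* had differences of -0.07, -0.20 and 0.50. The summed linear intensity of the 8 leukocyte markers was 2903, 5873 and 4500 on the 3 arrays, while the defining leukocyte gene *ptprc* was at the floor on every array. All 3 detected melanocyte markers of 4 measured were below 0, but 0 were at least 1 lower. Their median was -0.77 and the sums were 14451, 19445 and 25637, and *mitf* was at the floor. Neuron markers were mixed, with 4 of the 11 detected of 12 measured below 0 on *s50_1*, a median of 0.37 and sums of 71430, 54780 and 40611. Bone and dentin markers had a median of -0.285 on *s50_1*, with 4 of 5 detected below 0. Epidermis and skin gland markers had a median of -0.199, with 4 of 6 below 0. Cartilage, erythroid and ubiquitous lists had medians of 0.04, -0.002 and 0.06 on *s50_1*. The part of these other cells or of pool size in the difference of the muscle members was not tested.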

How the data were processed

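Deposited log2 intensities of 3 Affymetrix GeneChip Xenopus laevis Genome 2.0 arrays were used as the authors left them after GCRMA in JMP Genomics 5.0, which subtracts background by probe sequence, normalizes by quantiles and summarizes probes. The sources used here do not say whether other stages entered that step. Values near 2 are the floor and have no order. Precision rests on 3 pools.

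Symbols came from the platform annotation. Of 149 member Xl-PSIDs, 147 matched the RefSeq table of the frog assembly v10.1 by gene identifier and 0 were renamed. Another 5 with several member symbols were left out. Of the members, 37 can match several transcripts. Members and lists were chosen with earlier results of these data known. Named were the 4 brightest genes of each role and form, those past a difference of 1 (at most 4 a role), the 10 with the largest SD, those not detected and those whose Xl-PSIDs disagree, and in each list the 3 brightest and those past 1 on *s50_1*. Other names were chosen after their values were seen. No test was made, since all arrays form a single group.

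Other detection and difference minimums, quantile normalization, genes instead of Xl-PSIDs, exclusion of Xl-PSIDs that can match several transcripts, other reference values and leaving out each array were tried. Counts with no detection rule, or with 4 on every array, were added after the data were seen. Python 3.11.15, pandas 2.3.3 and numpy 2.4.6 were used, and the counting was tested on simulated data. No sequences were used here.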

Additional observations from a re-analysis of the deposited data

How the results depend on the processing

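Of 190 values of 20 results recomputed under an alternative, 153 stayed within 1.5 times the count or within 1 SD and 37 moved. For a median difference, this SD was the median SD of the members over the 3 arrays, which includes the difference of *s50_1* itself. It is a wide limit. A change from -1.97 to -0.91 with no detection rule, for slow or cardiac members on *s50_1*, lay within it. So did a change of sign from 0.24 to -0.12 for all members on *s50_2* without *s50_1*. With a difference of 1.5 as the minimum, 26 members were lower and 2 higher on *s50_1*, 2 lower and 10 higher on *s50_2*, and 2 lower and 12 higher on *s50_3*, beside 4.9% and 7.96%, 2.76% and 2.04%, and 9.2% and 4.9% of all detected Xl-PSIDs. With 0.5 these were 56 and 9, 10 and 31, and 12 and 50, beside 28.2% and 25.7%, 15.9% and 17.6%, and 26.3% and 30.2%. Counted by gene on the brightest Xl-PSID, 58 genes were detected, and 24 were lower and 0 higher on *s50_1*. Of these genes, 1 was lower on *s50_2*, and 2 were lower and 13 higher on *s50_3*. No share over all genes was computed to stand beside these counts. The smooth median on *s50_1* was -0.79.

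Leaving out each array in turn gave 6 to 7 members higher on *s50_1*, 7 to 11 lower and 10 to 36 higher on *s50_2*, and 6 to 10 lower and 11 to 36 higher on *s50_3*. The high counts of *s50_2* and *s50_3* came where *s50_1* was the sole reference. Without *s50_1*, 11 members were lower and 10 higher on *s50_2* than on *s50_3*, where 11.1% of all Xl-PSIDs detected on these arrays were lower. In that setting the median difference of the members on *s50_2* turned from 0.24 to -0.12. The count lower on *s50_1* was 36 without *s50_2* (18.3% of all) and 36 without *s50_3* (8.13% of all). Shares over all Xl-PSIDs were not computed for the other counts with an array left out. A difference on an array that was left out has no value.

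The median level by form depended on the choice of Xl-PSIDs. With a minimum of 6 it was 9.46 for the slow or cardiac, 9.83 for the smooth and 11.11 for the non-muscle form. Leaving out Xl-PSIDs able to match several transcripts, it was 11.79 for the skeletal striated, 8.60 for the smooth and 10.46 for the non-muscle form. The non-muscle value was 12.51 by gene and 10.77 to 11.08 with an array left out. Averaged over the Xl-PSIDs of a gene, it was 11.77 for the skeletal striated, 7.81 for the striated, 8.71 for the smooth and 10.16 for the non-muscle form. Quantile normalization and centering on the median moved no result that far. No paired analysis was possible because the 3 arrays form a single group. Low values limit the size of a difference, since 8 detected members lay below 4 on *s50_1*, and with 3 arrays no outlying value was tested for.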

Other observations

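The 5 Xl-PSIDs annotated with several muscle symbols, which the rule left out, also bore on the striated forms. The Xl-PSID for *tnnt3.L* and *tnnt3.S* lay at 11.75, 13.18 and 13.62 on the arrays in the order *s50_1*, *s50_2*, *s50_3*, a difference on *s50_1* of -1.65. That for *acta4.L* and *acta4.S*, alpha actins, lay at 14.02, 14.56 and 14.89, and that for *tpm1.L* with 2 further symbols at 14.07, 14.89 and 15.10. These were lowest on *s50_1*. The Xl-PSID for *myl1.L* and *myl1.S* was lowest on *s50_3*, at 13.81, 14.12 and 13.23, although the Xl-PSIDs of each copy alone were lowest on *s50_1*. The Xl-PSID for *tpm4.S* and *tpm4.L* lay at 12.002, 12.21 and 12.22.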
